A study of Mus musculus with 23 samples.

Results

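The Gimap family comprised 8 of the 33280 gene rows of the count table, those with the symbols Gimap1, Gimap3, Gimap4, Gimap5, Gimap6, Gimap7, Gimap8 and Gimap9, and no other row began with Gimap. The family was chosen because reads of Gimap9 were lost from subdural CNS-associated macrophages (sdCAMs) that had repopulated after depletion, so the Gimap9 levels are given throughout as a description, with no test. The question addressed here was whether the other 7 members moved with it. Gene expression was measured by bulk RNA-seq in 23 libraries of macrophages sorted from coronal brain slices freed of the choroid plexus. All mice carried Ccr2creERT2/+ R26tdT/tdT, were young adults at the first gavage and received tamoxifen at 2 mg per day, which switches on tdTomato (tdT) in cells expressing the monocyte receptor gene Ccr2, so that a tdT- sdCAM is defined only by lacking this mark. They were gavaged on 7 days with vehicle (CTL) or with BLZ945, a CSF-1 receptor inhibitor that depletes brain macrophages, at 200 mg/kg, and 8 weeks later a thromboembolic stroke was induced by thrombin, with cells taken 1 day afterwards. The groups were CD206- microglia (MG) of CTL mice (n = 5) and of BLZ945 mice (n = 5), CD206+ tdT- sdCAMs of CTL mice (n = 5) and of BLZ945 mice (n = 5), and CD206+ tdT+ sdCAMs of BLZ945 mice (n = 3). Each CTL library came from 1 animal, whereas BLZ945 libraries pooled 2 animals apart from those labelled F2, which held 1. Within a treatment the same replicate label (F1, F2, F3, M1 or M2) marks the same animal or pool, and 1 animal number stands in the names of both the F2 and the M1 libraries of BLZ945 mice.

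GIMAP proteins (GTPases of immunity-associated proteins) are small GTP-binding proteins of the AIG1 type that sit on intracellular membranes and are best known from lymphocytes. Their genes lie side by side in a cluster, and several members set the survival of T and B cells, through mitochondria and proteins of the BCL-2 family, or take part in autophagy. In the RefSeq order along mouse chromosome 6 the members run Gimap8, Gimap9, Gimap4, Gimap6, Gimap7, Gimap1, Gimap5 and Gimap3, with 0 other protein-coding genes between them.

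RefSeq (GRCm38.p6) gave 9 promoters for the 8 members. The 250 bases before the start are shown for the 3 members with most reads, since their levels in sdCAMs are what the results turn on. Gimap9 lies at chr6:48675885-48676134 on the plus strand, Gimap1 at chr6:48738797-48739046 on the plus strand and Gimap6 at chr6:48708245-48708494 on the minus strand. Capitals mark matches, on either strand, to GGAAGT (the ETS core) or TGTGGT (the RUNX core).
Gimap9: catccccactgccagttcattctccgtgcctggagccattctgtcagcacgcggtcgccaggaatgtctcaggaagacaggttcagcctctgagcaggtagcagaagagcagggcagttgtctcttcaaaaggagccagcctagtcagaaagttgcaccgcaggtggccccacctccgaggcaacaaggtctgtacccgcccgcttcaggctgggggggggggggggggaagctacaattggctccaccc
Gimap1: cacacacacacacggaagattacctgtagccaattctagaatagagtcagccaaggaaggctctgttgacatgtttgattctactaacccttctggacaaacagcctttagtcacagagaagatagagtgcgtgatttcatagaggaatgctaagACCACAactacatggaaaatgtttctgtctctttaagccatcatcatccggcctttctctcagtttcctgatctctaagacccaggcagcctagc
Gimap6: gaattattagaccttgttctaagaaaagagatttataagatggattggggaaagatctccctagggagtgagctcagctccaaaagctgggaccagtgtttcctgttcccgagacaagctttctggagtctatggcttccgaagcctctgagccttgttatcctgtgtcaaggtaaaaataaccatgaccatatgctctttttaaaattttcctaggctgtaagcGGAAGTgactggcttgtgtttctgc

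Among all 32851 promoters of this length, 19.7% held GGAAGT and 14% held TGTGGT. The ETS core was present in 2 of the 9 family promoters (Gimap5 and Gimap6) and the RUNX core in 3 (Gimap1, Gimap4 and Gimap7). The Gimap9 window held neither set of letters. The bases just after the listed start were found in a GENCODE vM21 transcript for 7 of the 9 promoters and not for those of Gimap1 and Gimap6, whose starts are therefore less certain.

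The library totals lay between 9433960 and 13276081 counts, and 3 counts, taken as the smallest level told from 0, equalled 0.230 to 0.331 CPM (counts relative to the library total, scaled by TMM factors). Per the methods of the study, cells were sorted as CD45+ and CD11b+ and as negative for Ly6C, Ly6G and CD11c, a gate that would remove most B and T cells, endothelial cells, Ly6C-positive monocytes, neutrophils and CD11c-positive dendritic cells. Marker genes followed the sort labels. The summed level of 6 MG markers was 17103 to 26107 CPM in MG and 1152 to 2355 CPM in sdCAMs, and that of 7 sdCAM markers was 10116 to 16644 CPM in sdCAMs and 12.2 to 51.2 CPM in MG. In bulk samples, fewer cells of a type and less RNA per cell cannot be told apart. The p-values below measure the spread between these libraries, and the floors cover counting error only.

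The family was carried by 3 genes. Gimap6, a member linked to autophagy through GABARAP proteins, had over 3 counts in 23 of 23 libraries. Gimap1, needed for the maintenance of mature lymphocytes, did so in 19 and Gimap9 in 15 libraries. Gimap5, whose loss shortens the life of lymphocytes, also did so in 15 libraries but reached at most 48 counts. Gimap3, Gimap4, Gimap7 and Gimap8 passed 3 counts in 1, 4, 1 and 4 libraries.

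Per length of exon, Gimap9 and Gimap6 were the highest members in MG of CTL mice, at 14.5 ± 3.78 and 13.6 ± 3.07 CPM per kb (SD, n = 5), a difference within their spread. Gimap1 stood at 6.44 ± 0.780 and Gimap5 at 0.708 ± 0.245 CPM per kb. In tdT- sdCAMs of CTL mice the order was Gimap6 with 13.3 ± 4.07, Gimap9 with 4.02 ± 1.94, Gimap1 with 2.27 ± 1.12 and Gimap5 with 0.211 ± 0.258 CPM per kb, and Gimap9 and Gimap1 did not differ beyond their spread. Gimap6 therefore led in sdCAMs on the per-length scale. Its share of all Gimap counts was 42.2% to 58.6% in MG CTL libraries, 67.7% to 81.4% in tdT- CTL, 75.3% to 100% in tdT- BLZ945 and 86.3% to 100% in tdT+ BLZ945 libraries.

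Gimap9 was read in every MG library and in every sdCAM library of CTL mice, and was nearly absent from sdCAMs of BLZ945 mice. Its levels in MG CTL were 29.4, 28.7, 13.9, 23.6 and 23.2 CPM for F1, F2, F3, M1 and M2, with a mean of 23.8 ± 6.21 (SD, n = 5). In MG BLZ945 they were 8.79, 7.10, 5.69, 12.9 and 7.21 CPM in the same order of labels, with a mean of 8.33 ± 2.78 (SD, n = 5). The highest BLZ945 library lay just below the lowest CTL library, and the mean was 2.85-fold lower.

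The sdCAM libraries of CTL mice held 53, 154, 71, 56 and 63 Gimap9 counts for F1, F2, F3, M1 and M2, or 4.46, 11.9, 7.12, 4.35 and 5.11 CPM, with a mean of 6.59 ± 3.18 (SD, n = 5). The tdT- libraries of BLZ945 mice held 0, 0, 0, 0 and 2 counts, the 2 counts being in M2, so that the level was at least 21.4-fold lower than in CTL, taking 3 counts per library as the floor. The 3 tdT+ libraries held 0 counts each, at least 22.3-fold lower than tdT- CTL. Every CTL library thus lay above every BLZ945 sdCAM library. Across the 5 groups the order was MG CTL, MG BLZ945, tdT- CTL, tdT- BLZ945 and tdT+ BLZ945, in which MG BLZ945 and tdT- CTL overlapped, as did the last 2 groups.

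**Figure D1:**
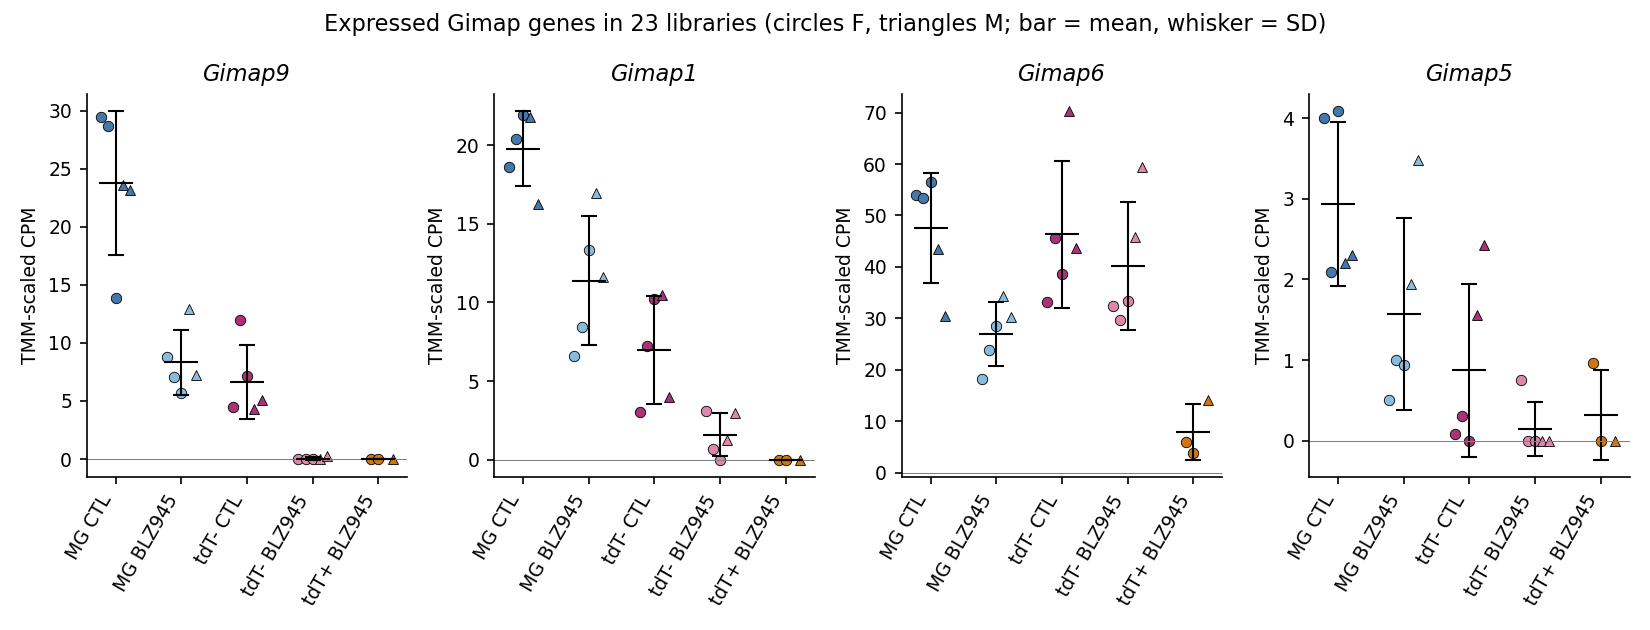
TMM-scaled CPM (vertical axis) of Gimap9, Gimap1, Gimap6 and Gimap5 in each of the 23 libraries by group (horizontal axis), with circles for replicate labels beginning with F, triangles for M, bars for means and whiskers for SD. Gimap9 sits at or near 0 in all 8 sdCAM libraries of BLZ945 mice, whereas Gimap6 is lowest in tdT+ sdCAMs, with a mean of 7.97 CPM.

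How often genes disappear in this way was counted over the table. Of 11130 genes with over 3 counts in each tdT- CTL library, 24 (0.216%) were at 3 counts or fewer in every tdT- BLZ945 library, and Gimap9 had the highest CTL level of these. Among the 4038 of them with a CTL mean of 2 to 20 CPM, 11 (0.272%) were lost in tdT- BLZ945 and 38 (0.941%) in tdT+ BLZ945 libraries. Gimap1 was the other member in the last set, and it was not in the set of 24.

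Markers of other cell types were set beside the loss of Gimap9. The summed level of the 6 MG markers was 1152 to 2148 CPM in tdT- CTL, 1421 to 2355 CPM in tdT- BLZ945 and 1496 to 1977 CPM in tdT+ BLZ945 libraries, and 0 of the 6 markers were at 0 in any of these groups. The summed level of the 6 dendritic cell markers, in contrast, was lower where Gimap9 was lost. It was 223 to 782 CPM in tdT- CTL, 30.9 to 199.5 CPM in tdT- BLZ945 and 34.7 to 84.5 CPM in tdT+ BLZ945 libraries, with no overlap between CTL and BLZ945. Most of it was Cd209a, a lectin gene of dendritic cells and some macrophages, at 443 ± 197 CPM in tdT- CTL, 86.7 ± 51.4 CPM in tdT- BLZ945 (SD, n = 5 each) and 46.3 ± 30.4 CPM in tdT+ BLZ945 (SD, n = 3). Zbtb46, a transcription factor gene of dendritic cells, stood at 21.1, 15.7 and 14.8 CPM in the same order, Xcr1 was at 0 in all 13 libraries and Clec9a had at most 5 counts. Flt3 went the other way, at 1.41, 5.16 and 3.88 CPM, and Ccr7 had a mean of 0.190 CPM in tdT- CTL, 425 counts in 1 tdT- BLZ945 library and 0 in the other 4 and in tdT+ BLZ945. In MG, where Gimap9 was highest, the list summed to 2.46 to 9.80 CPM. Among the B cell markers, Cd79b, a B cell receptor gene, stood at 28.9 ± 6.28 CPM in tdT- CTL and 4.33 ± 2.51 CPM in tdT- BLZ945 (SD, n = 5 each), with no overlap, and at 31.4 ± 19.5 CPM (SD, n = 3) in tdT+ BLZ945, where Gimap9 had no reads. The summed level of the 6 B cell markers overlapped, at 214 to 346 CPM in tdT- CTL, 173 to 253 CPM in tdT- BLZ945 and 256 to 399 CPM in tdT+ BLZ945. Most of it was the immunoglobulin gene Ighm, with means of 237, 208 and 281 CPM in the same order. Dendritic cells that carry CD11c and most B cells would be removed by the gate given above, and their part in the Gimap9 levels was not tested.

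**Figure D2:**
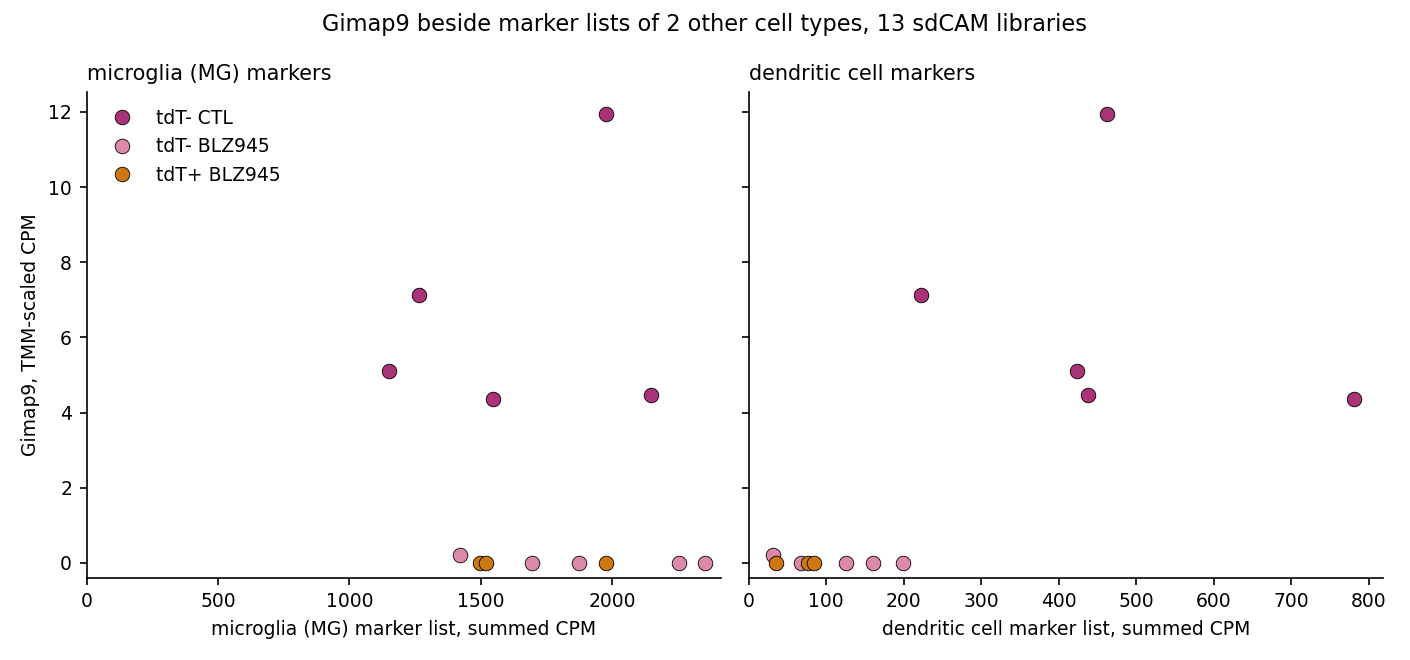
Gimap9 (vertical axis, TMM-scaled CPM) against the summed CPM of the 6 MG markers (left, horizontal axis) and the 6 dendritic cell markers (right, horizontal axis) in the 13 sdCAM libraries, 1 point each. The CTL libraries, at 4.35 to 11.9 CPM of Gimap9, overlap the BLZ945 libraries along the MG marker axis and lie above them along the dendritic cell marker axis.

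The first comparison asked whether the other members changed in repopulated MG. All 3 that could be tested were lower on average in BLZ945 than in CTL mice, by log2 fold changes of about the same size, yet 0 of 3 were called by the edgeR quasi-likelihood test at an adjusted p under 0.05. Among all 11264 genes tested, 46 (0.408%) were called, and leaving out 1 library moved this count to between 22, without CTL F2 or M1, and 102, without CTL M2. DESeq2 called 2 of 3, beside 147 genes called higher and 125 lower over the table. At an unadjusted p under 0.05 the edgeR count was 2 of 3. The share of all genes at that level was not counted, here or below, so such counts have no background and are descriptions.

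Gimap6 read 53.9, 53.4, 56.5, 43.5 and 30.5 CPM in MG CTL (F1, F2, F3, M1 and M2) and 18.2, 23.96, 28.4, 34.4 and 30.3 CPM in MG BLZ945. The groups overlapped only through CTL M2. The log2 fold change was -0.83 (SE 0.19, edgeR adjusted p = 0.0713), with an adjusted p of 0.00542 by DESeq2, and leaving out CTL M2 gave -0.95 with an edgeR adjusted p of 0.0170. Gimap1 read 18.6, 20.4, 21.9, 21.8 and 16.2 CPM in MG CTL and 6.56, 8.43, 13.3, 16.96 and 11.6 CPM in MG BLZ945. CTL M2 and BLZ945 M1 were the libraries that overlapped, and the log2 fold change was -0.81 (SE 0.23, edgeR adjusted p = 0.152, DESeq2 adjusted p = 0.0452).

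Gimap5 lay between 2.09 and 4.09 CPM in MG CTL and between 0.505 and 3.48 CPM in MG BLZ945, with overlapping groups (log2 fold change -0.90, SE 0.52, edgeR adjusted p = 0.495). The summed level of all 8 members was 94.1 ± 13.6 CPM in MG CTL and 48.8 ± 12.1 CPM in MG BLZ945 (SD, n = 5 each). The summed level of the 6 B cell markers had a median of 372 CPM in MG CTL and 234 CPM in MG BLZ945. Its ranges overlapped, at 286.04 to 513 CPM in MG CTL and 189 to 299 CPM in MG BLZ945 libraries, and it was not tested. Nearly all of it was Ighm, an immunoglobulin gene, at 343 ± 75.3 and 229 ± 42.2 CPM, and Cd79b, at 37.7 ± 7.63 and 7.57 ± 2.66 CPM (SD, n = 5 each). Pax5 was at 0 in both groups and Ms4a1 at 0 in MG BLZ945. The CD45+ CD11b+ gate would remove most B cells, and their part in the Gimap levels was not tested. For Gimap9, whose contrast chose the family, every BLZ945 library lay below every CTL library, as 1.31% of genes did, and the log2 fold change was -1.53 (SE 0.25), given without a test.

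The second comparison concerned tdT- sdCAMs of BLZ945 and CTL mice, the cells in which Gimap9 was lost. Gimap6 stayed near its CTL level, and Gimap1 was read at lower levels that spread too widely to be called. By edgeR 0 of the 2 testable members were called, 0 passed an unadjusted p under 0.05 and DESeq2 also called 0, where edgeR called 0% of all 13076 genes.

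Gimap6 read 33.3, 45.7, 38.7, 70.3 and 43.6 CPM in tdT- CTL and 32.4, 29.7, 33.4, 45.9 and 59.4 CPM in tdT- BLZ945, each in the order F1, F2, F3, M1 and M2. The groups overlapped almost completely. The log2 fold change was -0.18, with a 95% interval from -0.92 to 0.55 (SE 0.35, edgeR adjusted p = 1.00). The interval held the log2 difference measured in MG, so equal levels were not shown.

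Gimap1 read 3.03, 7.21, 10.2, 10.5 and 3.97 CPM in tdT- CTL. In tdT- BLZ945 it had 29, 6, 0, 13 and 27 counts, or 3.11, 0.649, 0, 1.27 and 2.98 CPM. Only BLZ945 F1 reached into the CTL range, and the means differed 4.36-fold. The log2 fold change was -2.09 (SE 1.02), with a 95% interval from -4.28 to 0.10 and an edgeR adjusted p of 0.964. Gimap9, with every BLZ945 library below every CTL library, was among the 1.27% of genes with that property, which chose it.

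Gimap5 was too sparse in sdCAMs for a test, with 1, 4, 0, 20 and 30 counts in tdT- CTL and 7, 0, 0, 0 and 0 counts in tdT- BLZ945. The interaction of treatment with cell population was tested for Gimap1, Gimap5 and Gimap6, and edgeR called 0 of 3, where 5 (0.0394%) of 12697 genes were called, with 0 at an unadjusted p under 0.05 and 0 by DESeq2. In this fit, and in those of tdT- sdCAMs with MG below, Gimap5 passed the filter on low counts only through its MG reads. Its results there are therefore a description. Leaving out 1 library moved the count over all genes to between 0, without MG CTL F2 or M1, and 36, without tdT- BLZ945 F1. The difference of log2 fold changes was 0.62 for Gimap6 (SE 0.35, edgeR adjusted p = 0.652) and -1.31 for Gimap1 (SE 0.84, edgeR adjusted p = 0.708).

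The third comparison set tdT+ against tdT- sdCAMs of the same BLZ945 mice. Gimap6 was lower in the tdT+ cells, Gimap1 had no reads there, and Gimap9 was at or under the floor in both populations. Of the 2 testable members other than Gimap9, edgeR called 1, Gimap6, beside 27 (0.206%) of 13076 genes, or 16 without tdT+ F2.

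The 3 tdT+ libraries F2, F3 and M2 had 63, 38 and 141 Gimap6 counts, or 6.08, 3.76 and 14.1 CPM. All of them lay below the lowest tdT- BLZ945 library, at 29.7 CPM, as did 1.64% of genes tested. The log2 fold change was -2.35 (SE 0.45, edgeR adjusted p = 0.0432), a 5.04-fold difference of means. With the replicate block, which pairs libraries of the same animal or pool, the fold change was -2.51 and the adjusted p 0.517, with 6 in place of 27 genes called over the table. The call was also lost when tdT- F1, F3, M1 or M2 or tdT+ F2 or F3 was left out, with adjusted p-values of 0.0619, 0.0659, 0.0983, 0.0757, 0.301 and 0.208, with fold changes from -2.42 to -1.999. Without tdT+ M2, the highest tdT+ library, the log2 fold change was -3.04 and the adjusted p 0.00891.

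Gimap1 had 0 counts in all 3 tdT+ libraries, and 1 of the 5 tdT- BLZ945 libraries, F3, also had 0. The groups overlapped for this reason, and edgeR gave an adjusted p of 0.313, against 0.00623 by DESeq2. For Gimap9 no fold is given because both groups were under the floor. The summed level of the 7 sdCAM markers was 10116 to 13590 CPM in tdT+ and 12481 to 16510 CPM in tdT- BLZ945 libraries. Of these markers, Cd163 had means of 353 CPM in tdT+ and 1457 CPM in tdT- BLZ945, and Lyve1 of 1537 and 2748 CPM, both without overlap. Mrc1, Pf4, Ms4a7, Cbr2 and Clec12a overlapped between the groups. The part of these markers in the Gimap6 difference was not tested.

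Against tdT- sdCAMs of CTL mice the tdT+ sdCAMs had lower mean levels of each of the 3 main members. Of the 2 testable members other than Gimap9, edgeR called 1, Gimap6, beside 37 (0.283%) of 13076 genes, or 21 without tdT+ F2. Its log2 fold change was -2.53 (SE 0.45, edgeR adjusted p = 0.0198), a 5.81-fold difference of means. Leaving out tdT- CTL M1, tdT+ F2 or tdT+ F3 raised the adjusted p to 0.0554, 0.159 and 0.107, and leaving out tdT+ M2 moved the log2 fold change to -3.24. Gimap1, at 6.99 ± 3.45 CPM (SD, n = 5) in tdT- CTL, was at least 23.7-fold lower in tdT+ cells, with an edgeR adjusted p of 0.0786 and a DESeq2 adjusted p of 1.15e-05. Every tdT+ library lay below every tdT- CTL library for Gimap1 and Gimap6, and 5.05% of genes did so. The same held for Gimap9, whose values chose the family. This contrast and the tdT- BLZ945 contrast above share the tdT- CTL libraries. The family sum was 61.9 ± 18.5 CPM in tdT- CTL (SD, n = 5), 43.3 ± 12.8 CPM in tdT- BLZ945 (SD, n = 5) and 8.43 ± 5.50 CPM in tdT+ BLZ945 (SD, n = 3).

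The fourth comparison asked how sdCAMs differed from MG of the same treatment. Gimap1 passed the test in BLZ945 mice and not in CTL mice, and Gimap6 did not pass it in tdT- cells. In CTL mice edgeR called 0 of the 3 testable members other than Gimap9, beside 10.3% of 12697 genes called lower and 25.6% in either direction, with 1 at an unadjusted p under 0.05. DESeq2 called 1, Gimap1, beside 2407 genes called higher and 1574 lower. Gimap9 was 3.60-fold lower in tdT- sdCAMs than in MG, given without a test. Gimap1 was lower on average (log2 fold change -1.51, SE 0.59, edgeR adjusted p = 0.0671). DESeq2 gave it an adjusted p of 0.0174. For Gimap6 the log2 fold change was -0.04, with a 95% interval from -0.55 to 0.47.

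In BLZ945 mice edgeR called 2 of the 3 testable members other than Gimap9 lower in tdT- sdCAMs than in MG, beside 14.1% of genes called lower and 18.3% higher, 32.4% in all. Gimap9 was at least 27.0-fold lower in tdT- sdCAMs, given without a test. Gimap1 was 7.11-fold lower (log2 fold change -2.82, SE 0.64, edgeR adjusted p = 0.00165). Gimap5, which passed the filter only through its MG reads, was called on few reads (log2 fold change -3.31, SE 1.24, edgeR adjusted p = 0.0451). With the replicate block the log2 fold change was -4.87 and the edgeR adjusted p 0.0526. The size rested on tdT- BLZ945 F1, the only library of its group with Gimap5 reads, without which the fitted log2 fold change was -7.16, a value against libraries all at 0 that depends on the prior count. Leaving out 1 library ended this call in 9 of 10 fits. Gimap6 was read at 27.0 ± 6.21 CPM in MG and 40.2 ± 12.4 CPM in tdT- sdCAMs (SD, n = 5 each), with a log2 difference of 0.58 (SE 0.25, edgeR adjusted p = 0.0767, DESeq2 adjusted p = 0.0433).

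The tdT+ sdCAMs were called lower than MG of BLZ945 mice in 2 of the 4 testable members other than Gimap9 by edgeR, beside 10.6% of 13790 genes called lower and 14.6% higher, 25.2% in all. Gimap9 was at least 28.2-fold lower, given without a test, and Gimap1 at least 38.5-fold lower (edgeR adjusted p = 1.28e-05). Gimap6 was 3.39-fold lower (log2 fold change -1.76, SE 0.37, edgeR adjusted p = 0.00105), and without tdT+ M2 the log2 fold change was -2.47. Gimap6 was thus called lower than in MG in tdT+ and not in tdT- sdCAMs of BLZ945 mice, and the direct test between the 2 sdCAM populations is the one given above.

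The remaining members were read in a few libraries. Gimap4, a regulator of T cell death, had 49 counts in tdT- BLZ945 F1, 35 in tdT- CTL M1, 15 in MG BLZ945 F3, 4 in MG BLZ945 F1 and 1 in tdT- CTL F2. Gimap8 had 15 counts in tdT- CTL M1, 11 in tdT- CTL F3 and at most 7 elsewhere. Gimap7 was read only in tdT- CTL M1, with 6 counts, and Gimap3 in tdT- BLZ945 F1, with 14 counts, and in MG BLZ945 F3, with 1 count. Library tdT- CTL M1 held reads of Gimap4, Gimap7 and Gimap8, and tdT- BLZ945 F1 held reads of Gimap3 and Gimap4 but none of Gimap8. The reads of Gimap8 in tdT- CTL F3 (11), MG BLZ945 F2 (7) and tdT+ BLZ945 M2 (4) stood without reads of Gimap3, Gimap4 or Gimap7.

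Markers of other cell types were high in some of those libraries. The summed level of 10 T cell markers was 12.8 CPM in tdT- BLZ945 F1 and 2.56 CPM or less in the other 22 libraries, and 0 of the 10 were at 0 across the tdT- BLZ945 group. In the same library 6 monocyte markers summed to 233 CPM, beside 100.03 CPM in tdT- BLZ945 M1, 45.8 CPM in tdT+ BLZ945 F3 and 7.21 to 26.9 CPM in tdT- CTL libraries, and tdT- BLZ945 M1 held no reads of Gimap3, Gimap4, Gimap7 or Gimap8. The 10 endothelial markers summed to 183 CPM in tdT- CTL M1 and to 34.4 to 140 CPM elsewhere, with 69.0 CPM in tdT- BLZ945 F1. In tdT- CTL M1 the T cell markers summed to 0.699 CPM and the dendritic cell markers to 782 CPM. The gate on CD45, CD11b and Ly6C would remove most T cells, endothelial cells and Ly6C-positive monocytes, and their part in the Gimap3, Gimap4, Gimap7 and Gimap8 reads was not tested. In the tdT+ libraries, 5 of the 10 T cell markers were at 0.

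**Figure D3:**
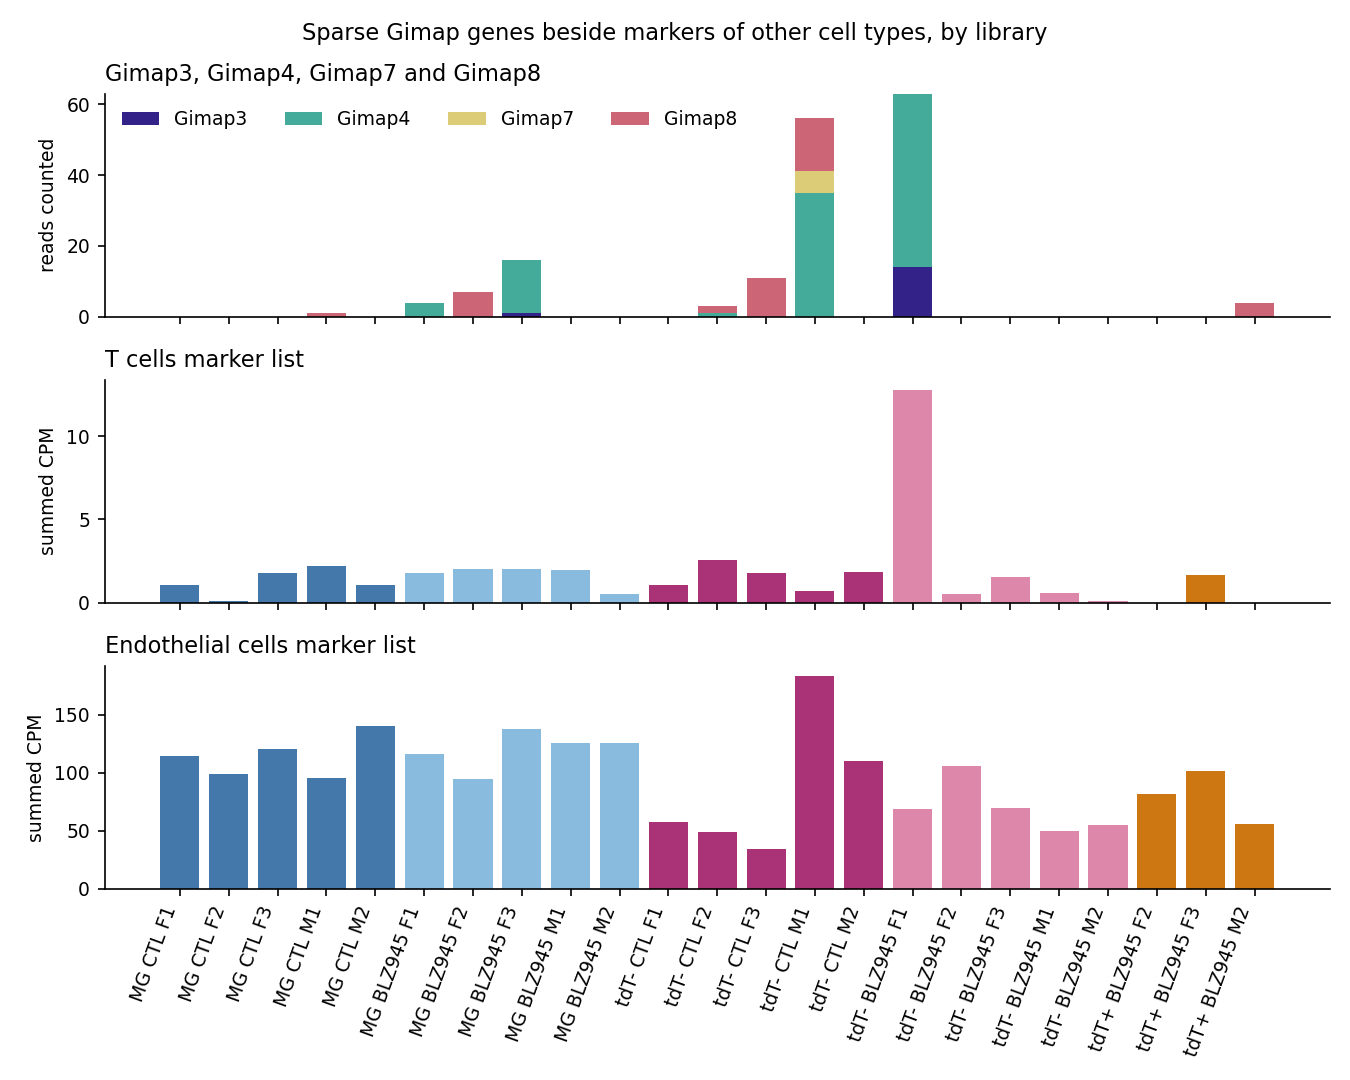
Reads counted for Gimap3, Gimap4, Gimap7 and Gimap8 in each library (top, stacked bars) above the summed CPM of the T cell and endothelial marker lists (middle and bottom, 1 bar per library, horizontal axis). The tallest Gimap bars are those of tdT- CTL M1 and tdT- BLZ945 F1. Below tdT- CTL M1 stand the highest endothelial bar, at 183 CPM, and a T cell bar of 0.699 CPM. Below tdT- BLZ945 F1 stand the highest T cell bar, at 12.8 CPM, and an endothelial bar of 69.0 CPM.

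Gimap3 and Gimap5 share a small part of their sequence. Of the 50-base windows in GENCODE vM21 transcripts, 7.52% of those of Gimap3 and 4.53% of those of Gimap5 occurred in the other gene, so reads from those stretches are uncertain where multiply matching reads were counted. The other 6 members shared 0 windows with any member.

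The genes flanking the cluster were compared to see whether a change ran along the chromosome. Of the 4 protein-coding neighbours on either side, Tmem176a and Tmem176b, which encode membrane proteins of myeloid cells, had most reads. In tdT- sdCAMs their log2 fold changes for BLZ945 against CTL were 0.13 (SE 0.22; adjusted p = 1.00 by edgeR) and 0.19 (SE 0.20; adjusted p = 0.998 by edgeR). In MG they were -0.62 (SE 0.13, edgeR adjusted p = 0.0593) and -0.36 (SE 0.12, edgeR adjusted p = 0.197). Repin1, on the other side, had a log2 fold change of 0.14 (SE 0.22) in MG and 0.09 (SE 0.65) in tdT- sdCAMs. EdgeR called 0 of the testable neighbours in either contrast, with 2 at an unadjusted p under 0.05 in MG (Tmem176a and Tmem176b) and 0 in tdT- sdCAMs. DESeq2 called 1 in MG, Tmem176a, and 0 in tdT- sdCAMs.

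**Figure D4:**
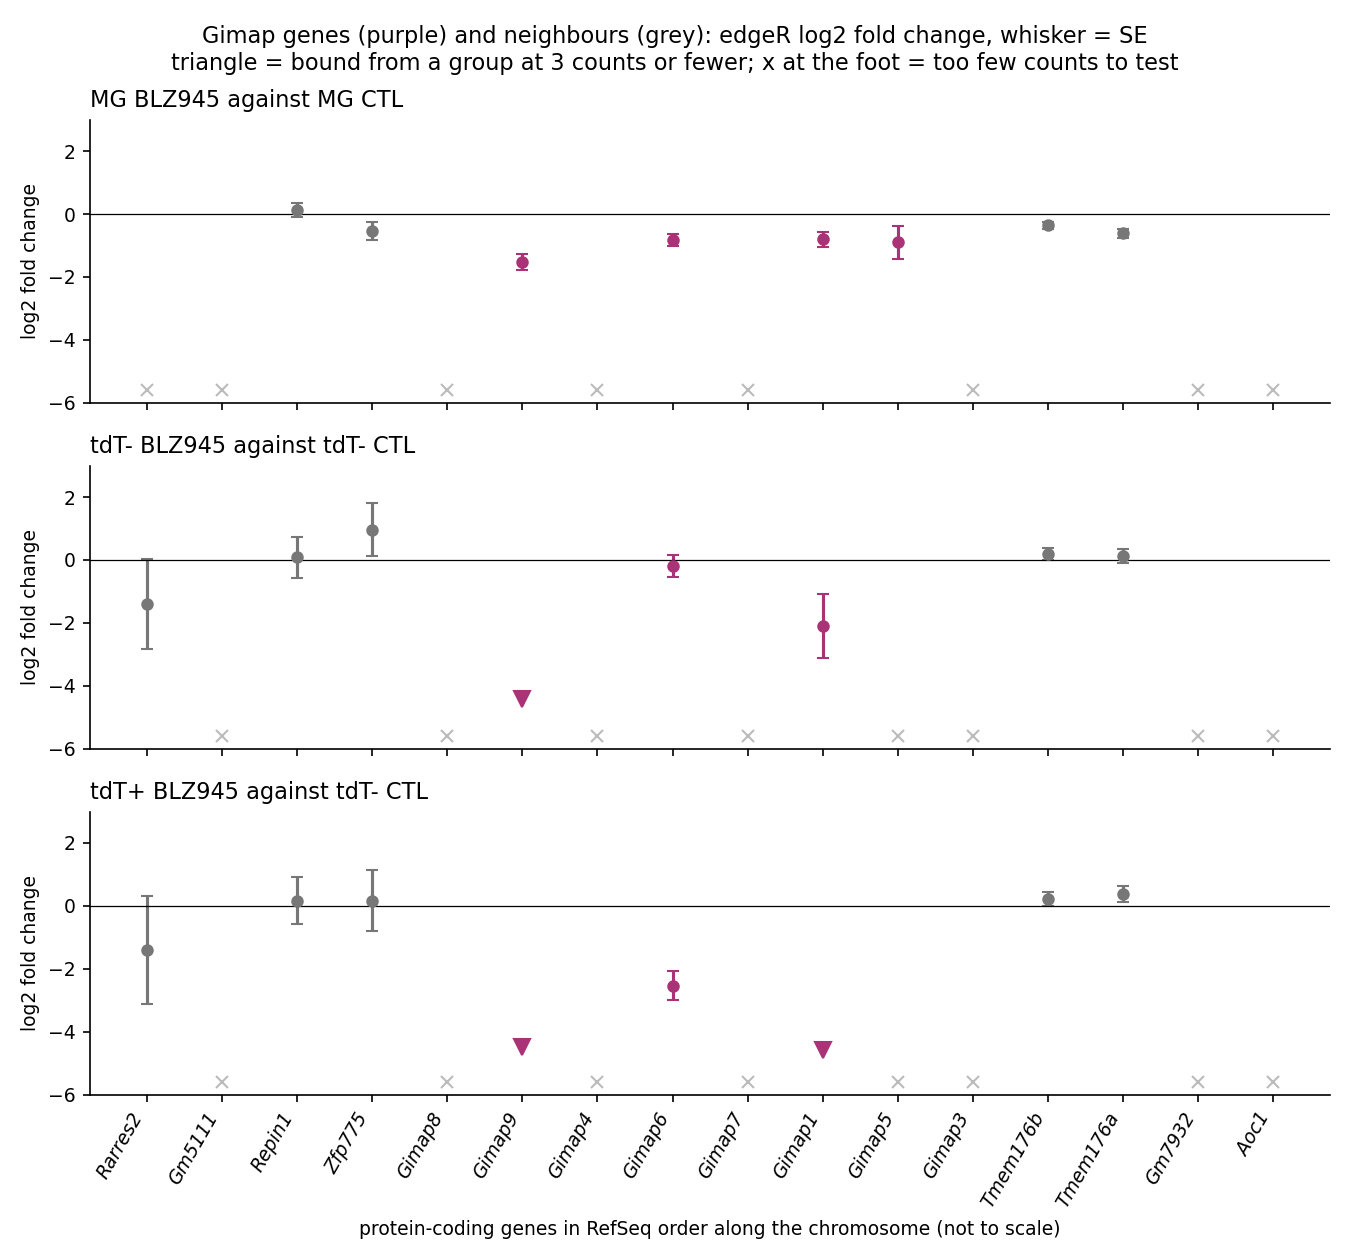
EdgeR log2 fold change (vertical axis, whiskers SE) of the Gimap genes and their neighbours in RefSeq order (horizontal axis, not to scale) in 3 comparisons, with triangles for bounds set by a group at 3 counts or fewer and crosses for genes with too few counts to test. The Gimap9 triangles stand for 21.4-fold and 22.3-fold lower levels or more, and Tmem176a and Tmem176b lie near 0 in both sdCAM panels.

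The pathway around the GIMAPs was followed in a list of 15 genes, among them BCL-2 family members, Il7r and autophagy genes of the GABARAP and LC3 group, all 15 of which had enough reads for a test. EdgeR called 0 of 15 for BLZ945 against CTL in MG and 0 of 15 in tdT- sdCAMs, with 4 and 1 at an unadjusted p under 0.05, and DESeq2 called 0 in both. The median log2 fold change of the list was 0.05 in MG and 0.06 in tdT- sdCAMs, beside 0.000192 and -0.00118 over all genes. For tdT+ against tdT- sdCAMs of BLZ945 mice and against those of CTL mice edgeR again called 0 of 15, with 0 at an unadjusted p under 0.05 and 0 by DESeq2. Between tdT- sdCAMs and MG of CTL mice 3 genes were higher and 1 lower, or 4 of 15, a share near the 25.6% of all genes called there. Gabarap, an autophagy protein that binds GIMAP6, was higher in sdCAMs (log2 fold change 0.98, SE 0.15, edgeR adjusted p = 2.60e-05), as were Gabarapl1 and Map1lc3b. Il7r, the receptor for the lymphocyte survival factor IL-7, was lower (log2 fold change -3.51, SE 1.17, edgeR adjusted p = 0.0297), a call that DESeq2 did not make. Gabarapl2, of the same group as Gabarap, went the other way, at 38.8 ± 7.49 CPM in tdT- CTL and 52.2 ± 5.64 CPM in MG CTL (SD, n = 5 each). It was not called by edgeR but was among the 4 higher and 2 lower genes called by DESeq2. In BLZ945 mice 5 of 15 were higher and 2 lower in tdT- sdCAMs than in MG, and 3 were higher and 3 lower in tdT+ sdCAMs than in MG, beside 32.4% and 25.2% of all genes called.

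A second list held 16 interferon-inducible GTPases, a GTPase family that also acts at membranes. EdgeR called 0 of the 13 testable members in MG and 0 of 15 in tdT- sdCAMs for BLZ945 against CTL, with 2 and 1 at an unadjusted p under 0.05, and DESeq2 called 0 in both. The median log2 fold change was 0.29 in MG and -0.52 in tdT- sdCAMs. In CTL mice 7 of 15 were higher in tdT- sdCAMs than in MG, where 15.3% of all genes were called higher, among them Iigp1 (log2 fold change 4.61, SE 0.71, edgeR adjusted p = 3.39e-05). In BLZ945 mice 4 of 15 were higher in tdT- sdCAMs than in MG, beside 18.3% of all genes, and in tdT+ sdCAMs 4 were higher and 1 lower than in MG, beside 14.6% and 10.6%.

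The genes whose levels followed Gimap9 most closely over the 13 sdCAM libraries were Cenpn, Gpr165, Gpnmb, Gadl1 and Zfp174, with Pearson correlations of log2(CPM + 1) from 0.867 to 0.911. Gpr165, an orphan receptor, stood at 22.6 ± 6.84 CPM in tdT- CTL, 1.64 ± 3.11 CPM in tdT- BLZ945 (SD, n = 5 each) and 0.264 ± 0.374 CPM in tdT+ BLZ945 (SD, n = 3). Those closest to Gimap6 were C2, Ccn1, Timd4, Colec12 and Pkp4, from 0.944 to 0.957. Timd4, a receptor for dying cells found on resident macrophages, stood at 211 ± 31.5 CPM in tdT- CTL, 168 ± 67.7 CPM in tdT- BLZ945 and 13.5 ± 9.77 CPM in tdT+ BLZ945. The 2 sets of 5 genes had no gene in common. These correlations are descriptions, since the points share 3 groups and libraries of the same animals.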

How the data were processed

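The deposited file held raw counts of reads for each gene symbol. According to the sample labels, the authors made the reads with bcl2fastq 2.20, aligned them with STAR 2.7.11a and counted them over genes with featureCounts. The genome build behind the table was not clear, and how reads matching several genes were treated is not given in the sources used here. Libraries were grouped by their titles. CPM used library totals times TMM factors. Counts were tested with edgeR 4.0.16 (R 4.3.3, filterByExpr, glmQLFit and glmQLFTest), with Benjamini-Hochberg adjustment over all genes tested. DESeq2 1.42.0 was an alternative, as were RLE factors, library totals alone, 2 other filters, other sets of libraries, the replicate label as block or its letter as covariate, and leaving out each library. MG BLZ945 and CTL were fitted on 10 libraries, sdCAM groups on 13, tdT- sdCAMs with MG on 20 and tdT+ sdCAMs with MG on 23. Scripts were tested on simulated data. Gimap9 was left out of the counts of members called, and got no p-value, because its values chose the family. The 95% intervals used the t distribution with the degrees of freedom of the edgeR test. The members and lists were chosen with earlier results of these data known. All 8 members are named, with 8 protein-coding neighbours and, for Gimap9 and Gimap6, the 5 genes of highest correlation. The 50-base windows were taken from GENCODE vM21 and promoters from RefSeq. Within a treatment, the labels put libraries with the same replicate number on the same animal or pool, and their deviations from the group means correlated at 0.0686 to 0.131 on average. Libraries of the same label from different animals correlated at 0.0706 for MG CTL with MG BLZ945 and at -0.000649 for tdT- CTL with tdT- BLZ945. The pairing therefore rests on the labels. No pair of the 43 within groups was identical.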

Additional observations from a re-analysis of the deposited data

Results flagged for a closer look

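In 25 sets of 5 libraries, the highest or lowest library was compared with its nearest neighbour, and 9 stood apart by a gap above 0.71 of the whole range. For continuous values chance gives about 1 in 20 sets. This rate does not hold for sets mostly at 0 counts, where a single library with reads always stands apart. All 9 were single libraries with reads in a group otherwise at or near 0.

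The library tdT- BLZ945 F1 was the highest of its group for Gimap3 (1.5 CPM, 14 counts), Gimap4 (5.25 CPM, 49 counts) and Gimap5 (0.750 CPM, 7 counts). Its T cell markers were at 12.8 CPM, its monocyte markers at 233 CPM and its endothelial markers at 69.0 CPM. The library tdT- CTL M1 was the highest for Gimap4 (2.72 CPM, 35 counts) and Gimap7 (0.466 CPM, 6 counts), with endothelial markers at 183 CPM and T cell markers at 0.699 CPM. Gimap8 stood out in MG BLZ945 F2 at 0.584 CPM (7 counts). The others rest on 1 or 2 counts, with Gimap3 in MG BLZ945 F3 and Gimap8 in MG CTL M1 at 0.0849 CPM each and Gimap9 in tdT- BLZ945 M2 at 0.221 CPM.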

How the results depend on the processing

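The limits include few reads of some members, 3 tdT+ libraries and calls that differed between edgeR and DESeq2. Counts of members called by edgeR were 0 for MG BLZ945 against CTL and 1 each for tdT+ against tdT- BLZ945 and tdT+ BLZ945 against tdT- CTL, and each became 2 with DESeq2. For tdT- against MG CTL the count of 0 became 1, Gimap1, with DESeq2 or with library totals alone. Without a filter on low counts the MG count became 1. With library totals alone the tdT+ against tdT- BLZ945 count became 0. With all 23 libraries in one model both tdT+ against tdT- counts became 2, and without the BLZ945 libraries F2 and M1, whose names share an animal number (chosen after seeing the data), both became 0. The cause was not tested. For tdT- against MG BLZ945 the count of 2 became 1 without a filter, with the study's filter, with all 23 libraries in one model, with the replicate block, with the letter covariate and without F2 and M1, where the Gimap5 call was lost. The other 53 recomputed member counts stayed within 1.5 times the main value, and the 80 group means moved by less than 1 SD under the other scalings.

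Within a treatment and for the difference of effects, the replicate block pairs libraries of the same animal or pool. It took the tdT+ against tdT- BLZ945 count from 1 to 0 and ended the Gimap5 call against MG, as given above. In contrasts of BLZ945 with CTL mice the block was the replicate label alone, which joins different animals and so is no pairing. Every other member call stayed as it was. With the label block Gimap6 gave -0.83 in MG (edgeR adjusted p = 0.0792), -0.22 in tdT- sdCAMs and -2.66 for tdT+ against tdT- CTL (edgeR adjusted p = 0.0219). Leaving out 1 library at a time gave 0 to 1 members called in MG, 0 to 0 in tdT- sdCAMs and for the difference of effects, 0 to 1 for both tdT+ against tdT- contrasts, 0 to 0 for tdT- against MG in CTL, 1 to 2 in BLZ945 and 2 to 2 for tdT+ against MG. In tdT- against MG BLZ945, the Gimap5 call was lost in every such fit but the one without tdT- BLZ945 F1. The log2 fold change of Gimap6 turned sign where it was near 0, ranging from -0.38 without tdT- BLZ945 M2 to 0.016 without tdT- CTL M1 for tdT- BLZ945 against CTL, and from -0.25 without tdT- CTL M1 to 0.037 without tdT- CTL F1 for tdT- against MG CTL.

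DESeq2 called 147 genes higher and 125 lower in MG, 73 in tdT- sdCAMs, 189 and 228 for tdT+ against tdT- BLZ945 and CTL and 110 for the difference of effects, where edgeR called 46, 0, 27, 37 and 5. The replicate block gave 89 in MG, 6 for tdT+ against tdT- BLZ945 and 1 for the difference of effects. No filter gave 193 in MG, 61 for tdT+ BLZ945 against tdT- CTL and 9 for the difference of effects. All 23 libraries in one model gave 12, 29, 82, 121 and 1 in the order above. For the difference of effects, the study's filter gave 2, the letter covariate 1, and leaving out F2 and M1 gave 0. Leaving out 1 library changed the 46 genes called in MG to 22 to 29 without CTL F1, F2 or M1 or BLZ945 F3, M1 or M2, 94 without BLZ945 F2 and 102 without CTL M2. It changed the 27 for tdT+ against tdT- BLZ945 to 16 or 17 without tdT+ F2 or F3 or tdT- M1 and the 37 for tdT+ BLZ945 against tdT- CTL to 21 without tdT+ F2. For the difference of effects the 5 became 36 without tdT- BLZ945 F1, 9 to 12 without tdT- BLZ945 F3, M1 or M2, and 0 to 3 without MG CTL F1, F2 or M1, MG BLZ945 F1, F2, M1 or M2, tdT- CTL F1 or M1, or tdT- BLZ945 F2. Library totals alone shifted the median gene by -0.13 in tdT- against MG CTL, -0.17 in BLZ945 mice and -0.13 for tdT+ against MG. The replicate block shifted it by -0.10 in tdT- sdCAMs, -0.18 in tdT- against MG BLZ945 and -0.15 for the difference of effects.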

Other observations

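The 24 genes at 3 counts or fewer in every tdT- BLZ945 library and above that in every tdT- CTL library were ranked by their mean level in tdT- CTL. After Gimap9, at 6.59 CPM, came Atp6v0d2, a proton pump subunit gene, with 5.08 CPM, Zfp493 with 4.50 CPM, Rnase2a with 3.79 CPM and Wdr54 with 3.67 CPM. Cenpn and Tssk6, like Gimap9, had 0 counts in every tdT+ library, whereas the highest tdT+ library had 13 counts of Atp6v0d2 and 144 of Zfp493. These genes were chosen after their values were seen.

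In the 10 MG libraries, a set examined after the sdCAM result was known, the genes closest to Gimap9 by Pearson correlation of log2(CPM + 1) were Jam3, Galnt2, Cerox1, Gstt3 and Bank1, from 0.908 to 0.954. Those closest to Gimap6 were Adgrl2, Tbc1d10c, Tspan33, Cnn2 and Stard8, from 0.892 to 0.987. Jam3, a cell adhesion gene, stood at 22.1 ± 4.97 CPM in MG CTL and 12.2 ± 3.29 CPM in MG BLZ945 (SD, n = 5 each). None of these 10 genes was among the closest in sdCAMs.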
